A study of Mus musculus with 2 samples.

Results

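Fragments of globin mRNAs were counted in small RNA libraries of fetal mouse liver. The members were the 7 mouse globin genes listed by name, Hba-a1, Hba-a2, Hbb-b1, Hbb-b2, Hba-x, Hbb-y and Hbb-bh1. All 7 had rows among the 16128 gene symbols of the RefSeq mRNA class in the deposited table. Their rows held 5355 distinct read sequences, of which 2438 were seen as a single read over both libraries.

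One library came from Ago2ADH livers, in which Argonaute 2 (Ago2) is catalytically inactive, and one from wild type livers. Both were of strain B6/129 at stage E18.5 of gestation, and both held the gel fraction of 19 to 30 nt of total RNA. The labels do not say how many livers went into a library. With 1 library per genotype no difference could be tested against the spread between animals. Every interval below is a 95% interval that covers counting error only. It takes reads as independent. PCR copies of 1 molecule cannot be told from separate molecules in these reads, so the intervals may be too narrow even for counting error.

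Haemoglobin carries oxygen in red cells and is built from a pair of alpha-type chains and a pair of beta-type chains, each holding a haem group. The fetal liver is the main site of red cell formation at this stage, so its RNA holds globin mRNA from erythroid cells beside the mRNAs of hepatocytes. Adult-type alpha chains are encoded by the gene pair Hba-a1 and Hba-a2, and adult-type beta chains by a second pair, whose members carry the names Hbb-b1 and Hbb-b2, or Hbb-bs and Hbb-bt, depending on the haplotype. Hba-x (zeta), Hbb-y (epsilon-y) and Hbb-bh1 (beta-h1) encode the chains of primitive red cells of the yolk sac. Ago2 is the Argonaute that cuts RNA paired to its small RNA guide, and its cutting activity is needed to make miR-451, a microRNA of red cells. The reads described here are short pieces of mRNA, not microRNAs, and their counts need not follow the level of intact mRNA.

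The libraries held 7046197 reads for Ago2ADH and 7599870 for wild type, in 1187672 distinct sequences for Ago2ADH and 1372123 for wild type. RefSeq mRNA fragments made up 12.01% of the Ago2ADH reads and 12.7% of the wild type reads. The gene for Ago2, listed as Eif2c2, had 318 reads in Ago2ADH and 229 in wild type. These counts do not read the mutated base, so they do not check the genotype. Counts are given per 1000000 reads of the whole library (RPM) where libraries are compared. A count of 0 allows up to 0.426 RPM in Ago2ADH and 0.395 RPM in wild type.

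The sequences that carry the main results are shown first, 5′ to 3′, with coordinates in GRCm38 taken from exact matches to GENCODE M21 transcripts. The 3 nested reads shown of the most used 5′ end of alpha globin belong to 1 stack. They start 7 nt after the stop codon, in the 3′ UTR, on the plus strand of chromosome 11, and capitals mark the bases past the end of the most abundant globin read.
Hba-a2 read of 20 nt, chr11:32297215-32297234: ttctgcggggcttgccttct
Hba-a2 read of 22 nt, chr11:32297215-32297236: ttctgcggggcttgccttctGG
Hba-a2 read of 27 nt, chr11:32297215-32297241: ttctgcggggcttgccttctGGCCATG

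Reads of the alpha 5′ UTR behaved unlike the rest of the alpha mRNA, and the pair with most reads is shown for that reason.
Alpha 5′ UTR read of 25 nt, chr11:32296497-32296521: tgattctgacagactcaggaagaaa
Alpha 5′ UTR read of 18 nt, chr11:32296495-32296512: tctgattctgacagactc

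The coding sequences of Hba-a1 and Hba-a2 are 429 nt long and differ at 1 base, in codon 127, so few reads tell the genes apart. The most abundant read for each is shown with that base in capitals.
Read with the Hba-a2 base, chr11:32297152-32297173: tctctggaTaaattccttgcct
Read with the Hba-a1 base, chr11:32284335-32284359: tctctggaCaaattccttgcctctg

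For beta globin, the first read below is the most abundant one in the named rows, together with a second, nested read of equal count, and lies in the coding sequence on the minus strand of chromosome 7. The next pair lies in the 3′ UTR of Hbb-bt. These reads overlap by 12 nt, start 5 nt apart and went in opposite directions. Capitals mark the bases that only 1 of the pair holds.
Hbb-b2 coding read, chr7:103812726-103812745: ctgggcaaggatttcacccc
Hbb-b2 3′ UTR read, start 55 nt after the stop codon, chr7:103812585-103812601: CTGTCaattgtggggaa
Hbb-b2 3′ UTR read, start 60 nt after the stop codon, chr7:103812579-103812596: aattgtggggaaATGATG

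Finally, reads that match only Hbb-bs stood outside the named rows. The capital in the second of them marks the single coding base that differs from Hbb-bt.
Hbb-bs 3′ UTR read, chr7:103826605-103826627: ttgttcccaagagagcatctgtc
Hbb-bs coding read, chr7:103826689-103826714: agaaggtggtggctggagtggcCgct

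Globin fragments were fewer in the Ago2ADH library. The 7 genes together had 7412 reads (1051.9 RPM) in Ago2ADH and 12681 reads (1668.6 RPM) in wild type. On the log2 scale Ago2ADH stood at -0.67 relative to wild type (-0.71 to -0.62), a level 1.59-fold lower. Counting each distinct sequence once, scaled to the number of distinct sequences in the library, brought it to -0.21 (-0.28 to -0.14). The distinct globin sequences numbered 3051 in Ago2ADH and 4075 in wild type. As a share of RefSeq mRNA fragments, globins made up 0.876% of the reads in Ago2ADH (0.856 to 0.896) and 1.31% in wild type (1.29 to 1.33). In this bulk tissue, fewer erythroid cells and less globin RNA per cell cannot be told apart.

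Almost all globin reads carried the names of 1 alpha and 1 beta gene. Hba-a2 had 5225 reads (741.5 RPM) in Ago2ADH and 9129 reads (1201.2 RPM) in wild type, and ranked 7 among all RefSeq symbols by reads. Its log2 ratio was -0.70 (-0.75 to -0.65). Hbb-b2 had 2106 reads (298.9 RPM) in Ago2ADH and 3413 reads (449.1 RPM) in wild type, and ranked 25. Its log2 ratio was -0.59 (-0.67 to -0.51). In the named rows both adult chains were lower in Ago2ADH by a similar factor. A wider count took every read with 3 or fewer genome matches that matches a globin transcript. In it alpha had 5478 reads in Ago2ADH and 9454 in wild type, at -0.68 on the log2 scale (-0.73 to -0.63). Beta had 3318 in Ago2ADH and 4537 in wild type, at -0.34 (-0.41 to -0.28). By distinct sequences, scaled to their number in each library, the log2 ratios were -0.11 for Hba-a2 and -0.32 for Hbb-b2. Sharing of reads bears on these names: 99.5% of the Hba-a2 reads in Ago2ADH and 99.8% in wild type match the genome at more than 1 place, as do 67.1% of the Hbb-b2 reads in Ago2ADH and 66.9% in wild type.

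A gene was called lower or higher when it had at least 100 reads over both libraries, Ago2ADH was at most 0.5 times or at least 2 times wild type, with 1 outside the interval. Of 3329 RefSeq symbols with enough reads, 0.511% were lower and 0.391% higher by this rule. Hba-a2 and Hbb-b2 were the 2 globins with enough reads, and 0 of them met it. Both were past a limit of 1.5-fold lower, which 3.69% of all symbols passed, while 4.24% were at least 1.5-fold higher. The median log2 ratio of the 3329 symbols was 0.00, and 5% of them were below -0.53, so both globins lay in the lower tail. Among the 116 symbols with at least 1000 reads, the 5% point was -0.58, close to the value of Hbb-b2.

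**Figure D1:**
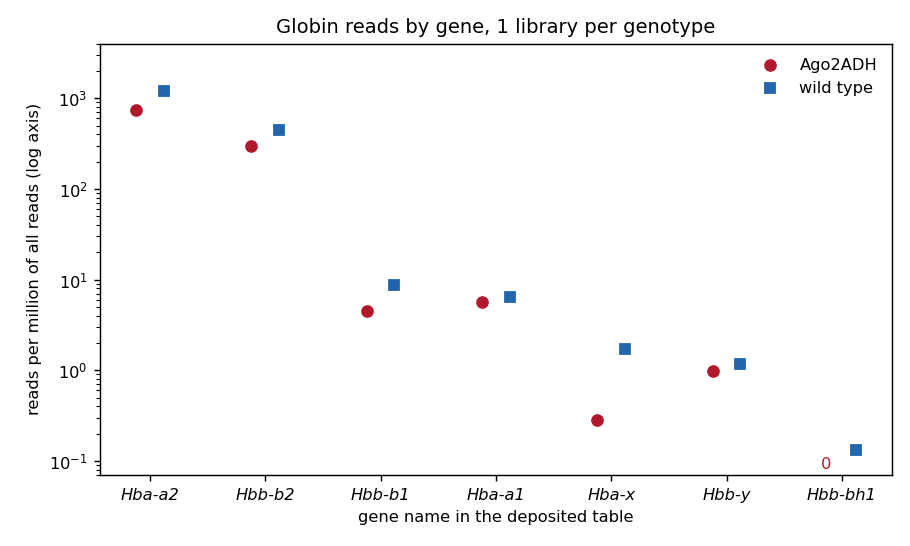
RPM (log axis) for each globin gene name, with Ago2ADH as circles and wild type as squares, 1 library each. Hba-a2 and Hbb-b2 stand more than an order of magnitude above the other names, and the wild type point is the higher one for each gene. The 0 marks Hbb-bh1 without reads in Ago2ADH.

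The other 5 names had under 100 reads each. Reads named Hba-a1 numbered 40 in Ago2ADH and 49 in wild type, with a log2 ratio of -0.18 (-0.82 to 0.45), an interval that spans no difference. Reads named Hbb-b1 numbered 32 in Ago2ADH and 67 in wild type, with a log2 ratio of -0.96 (-1.61 to -0.33).

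The embryonic chains were near the limit of detection in both libraries. Hba-x, the zeta chain of primitive red cells, had 2 reads in Ago2ADH and 13 in wild type. Hbb-y had 7 reads in Ago2ADH and 9 in wild type. Hbb-bh1 had 0 reads in Ago2ADH and 1 in wild type, and that read matches no exon of the annotated Hbb-bh1 transcript. Together the 3 embryonic genes gave 0.121% of globin reads in Ago2ADH and 0.181% in wild type. Their summed log2 ratio of -1.24 had a wide interval (-2.54 to -0.08), and at these counts the difference was barely detectable. The most abundant Hba-x sequence had 0 reads in Ago2ADH and 2 in wild type, and the most abundant Hbb-y sequence 0 in Ago2ADH and 3 in wild type.

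The difference in the ratio of alpha to beta reads depended on which reads were counted. In the named rows the ratio was 2.46 in Ago2ADH and 2.64 in wild type, a log2 difference of -0.10 (-0.19 to -0.01). The ratio was also taken over every read with 3 or fewer genome matches that matches a globin transcript, a choice made after the data were seen. It was then 1.65 in Ago2ADH and 2.08 in wild type, a difference of -0.34 (-0.42 to -0.26). Counting each distinct sequence of the named rows once turned the sign, to 0.21 (0.07 to 0.35). So did the use of reads with 1 genome match, which leaves few alpha reads, to 0.72 (0.20 to 1.23). Alpha sequences were repeated more: in wild type, 9178 alpha reads fell in 2306 distinct sequences and 3480 beta reads in 1750. The part of this repetition in the change of sign was not tested. Per 100 nt of coding sequence, alpha fragments stood at 105 RPM in Ago2ADH and 174 RPM in wild type. On the same scale the named beta rows stood at 43.8 RPM in Ago2ADH and 64.8 RPM in wild type.

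The names in the table divide the near-identical copies unevenly. All reads named Hba-a1 match the base that GENCODE assigns to Hba-a2, while the reads with the GENCODE Hba-a1 base are named Hba-a2 in the table. The alpha names are therefore opposite to GENCODE M21 at the only base that separates the coding sequences. Among reads over that base with 1 genome match, the Hba-a2 base had 38 reads in Ago2ADH and 43 in wild type. The Hba-a1 base had 25 reads in Ago2ADH and 19 in wild type, with a log2 ratio of 0.51 (-0.41 to 1.45). At this depth no difference between the alpha copies was detectable, and the values for Hba-a2 are best read as those of both alpha genes.

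For the beta pair, the named rows left out the reads of 1 copy. Among the globin transcripts searched, reads named Hbb-b1 match only Hbb-bt. Of these reads, 40.6% in Ago2ADH and 41.8% in wild type match the genome at more than 1 place. Of those named Hbb-b2, 1335 in Ago2ADH and 2112 in wild type match Hbb-bs and Hbb-bt alike, 729 in Ago2ADH and 1191 in wild type match Hbb-bt alone, and none matches Hbb-bs alone. The coding sequences of the pair, 444 nt long, differ at 1 base, so most of the reads that tell them apart come from the 3′ UTR.

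The reads unique to each beta gene went different ways. With 1 genome match required, Hbb-bt had 710 reads (100.8 RPM) in Ago2ADH and 1165 reads (153.3 RPM) in wild type, with a log2 ratio of -0.61 (-0.74 to -0.47). Hbb-bs had 1097 reads (155.7 RPM) in Ago2ADH and 1060 reads (139.5 RPM) in wild type, with a log2 ratio of 0.16 (0.04 to 0.28). The Hbb-bs reads, in 689 distinct sequences, carry no annotation class in the table. Reads unique to Hbb-bs thus lay between the 25% and 75% points of all symbols (-0.20 and 0.19), whereas those unique to Hbb-bt lay near the alpha genes. By region, Hbb-bs stood at 0.25 (0.11 to 0.39) in the 3′ UTR and at -0.22 (-0.51 to 0.06) in the coding sequence. Named reads that match both beta genes alike, with 3 or fewer genome matches, numbered 1303 in Ago2ADH and 2052 in wild type. Their log2 ratio was -0.55 (-0.65 to -0.45). The labels give strain B6/129 but not the beta haplotypes of the livers in each library, and reads were matched to 1 reference. The part of the haplotype in the difference between Hbb-bs and Hbb-bt reads was not tested and cannot be told apart from that of the genotype.

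The difference between the beta genes can be set against counting error without any scaling to library size. Reads of Hbb-bs over those of Hbb-bt gave a ratio of 1.55 in Ago2ADH and 0.910 in wild type, a log2 difference of 0.76 (0.58 to 0.95). In the 3′ UTR alone it was 1.34 in Ago2ADH and 0.733 in wild type, a difference of 0.87 (0.67 to 1.06). It was smaller, 0.47 (0.20 to 0.74), when each distinct sequence was counted once. Single sequences took part in it: the Hbb-bs 3′ UTR read shown above had 30 reads in Ago2ADH and 5 in wild type, while the Hbb-bs coding read had 16 in Ago2ADH and 15 in wild type. In the coding sequence Hbb-bs had 187 reads in Ago2ADH and 235 in wild type, and Hbb-bt 25 in Ago2ADH and 36 in wild type, with intervals of both log2 ratios that span 0 (-0.51 to 0.06 for Hbb-bs and -1.21 to 0.36 for Hbb-bt).

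**Figure D2:**
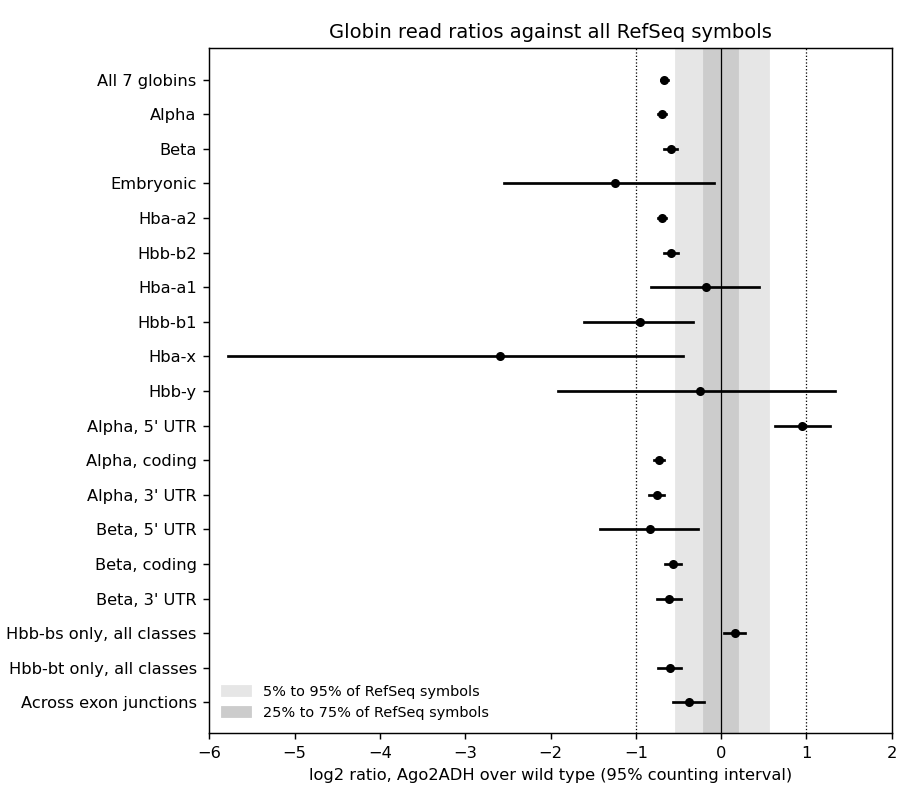
Log2 ratio of Ago2ADH over wild type (points) with its 95% counting interval (lines) for globin groups, genes and mRNA regions, beside the spread of 3329 RefSeq symbols (grey bands). Dotted lines mark the 2-fold limit. Alpha and beta reads sit near -0.7 and -0.6, while the alpha 5′ UTR (0.95) and reads that match only Hbb-bs (0.16) lie on the other side of 0.

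Nearly all globin fragments were pieces of the sense strand. An exact sense match to an annotated transcript was found for 98.1% of the reads in Ago2ADH and 97.8% in wild type. Reads that match the antisense strand alone numbered 4 in Ago2ADH and 0 in wild type. A further 87 reads in Ago2ADH and 173 in wild type ran past the annotated 3′ end.

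Alpha reads were placed on Hba-a2 (ENSMUSG00000069917.7, chr11:32296489-32297298, plus strand, 554 nt in 3 exons). They covered the mRNA in peaks, and the highest lay just after the stop codon, with 207 RPM in Ago2ADH and 367 RPM in wild type at its top. Beta reads were placed on Hbb-bt (ENSMUSG00000073940.3, chr7:103812524-103813996, minus strand, 703 nt in 3 exons). Their highest peak lay in the 3′ UTR too, at 44.1 RPM in Ago2ADH and 59.5 RPM in wild type. The tops lay at nearly the same base in both libraries, at position 441 in Ago2ADH and 440 in wild type for alpha, and at 511 in Ago2ADH and 509 in wild type for beta, counted from the A of the start codon.

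The alpha 5′ UTR was the exception among the regions. It had 222 reads (31.5 RPM) in Ago2ADH and 124 reads (16.3 RPM) in wild type, which gave a log2 ratio of 0.95 (0.63 to 1.28). The coding sequence had 3172 reads in Ago2ADH and 5670 in wild type, with a ratio of -0.73 (-0.79 to -0.67). The 3′ UTR had 1729 in Ago2ADH and 3150 in wild type, with a ratio of -0.76 (-0.84 to -0.67). The 5′ UTR thus gave 4.33% of the alpha reads in Ago2ADH (3.79 to 4.93) and 1.39% in wild type (1.15 to 1.65).

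This higher count in the alpha 5′ UTR was spread over many reads, but not over the whole region. Each 5′ end from 32 to 22 nt before the start codon had more reads in Ago2ADH. Ends from 21 to 12 nt before it went both ways. The end at 21 nt had 18 reads in Ago2ADH and 19 in wild type. At 20 nt there were 8 in Ago2ADH and 5 in wild type, and at 12 nt 1 and 8. The most abundant sequence of the region, which starts 27 nt before the start codon, had 15 reads in Ago2ADH and 0 in wild type. The next one had 11 reads in Ago2ADH and 3 in wild type. Without the most abundant sequence the region's log2 ratio was still 0.85 (0.52 to 1.18). Distinct sequences of the region numbered 95 in Ago2ADH and 77 in wild type, while the rest of the alpha mRNA gave 1665 in Ago2ADH and 2123 in wild type. The log2 ratio was above 0 in each of the length classes, 1.04 at 15 to 18 nt, 0.84 at 19 to 24 nt and 1.09 at 25 nt or more.

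Against the rest of the alpha mRNA, the 5′ UTR had log2 odds of 1.69 in favour of Ago2ADH (1.37 to 2.01), or 0.65 (0.21 to 1.10) with each distinct sequence counted once. The same comparison was made for the 12 hepatocyte mRNAs of a marker list, a check added after the alpha values were seen. Of these, 8 had at least 100 reads in the 5′ UTR. Their log2 odds ran from -0.57 to 0.19 with a median of -0.12, and 0 of the 8 had an interval above 0 and 1, that of Afp, below. The 5′ UTR of the named beta rows, placed on Hbb-bt, did not share the alpha pattern. It had 40 reads in Ago2ADH and 77 in wild type, which gave a log2 ratio of -0.84 (-1.42 to -0.27). Reads of the 5′ UTR that match only Hbb-bs numbered 31 in Ago2ADH and 30 in wild type, 0.16 (-0.62 to 0.93).

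Along the rest of both mRNAs the lower count in Ago2ADH was broad. In windows of 50 nt from the start codon on, log2 ratios of alpha ran between -1.19 and -0.12. The lowest was at positions 251 to 300 counted from the A of the start codon, with 357 reads in Ago2ADH and 880 in wild type. Those of beta ran between -0.96 and -0.15. No window from the start codon on with at least 100 reads had a ratio above 0 in either mRNA.

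**Figure D3:**
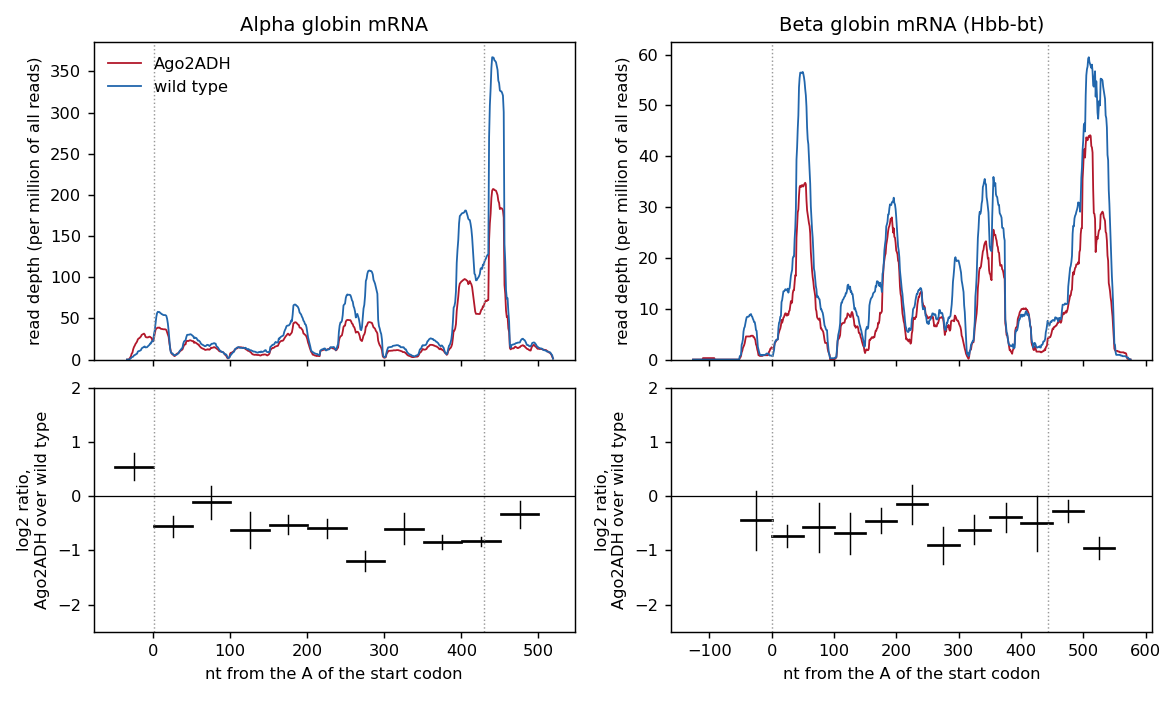
Upper panels show read depth in RPM along alpha and beta (Hbb-bt) mRNA by distance from the start codon, for Ago2ADH (red) and wild type (blue), and lower panels the log2 ratio in windows of 50 nt with 95% counting intervals. Dotted lines mark the start codon and the end of the coding sequence. The highest peaks lie at nearly the same base in both libraries, and the window before the alpha start codon, at 0.55, is the one above 0.

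Many alpha fragments shared a few 5′ ends. The end 7 nt after the stop codon alone had 572 reads in Ago2ADH and 1233 in wild type, which gave a log2 ratio of -0.999 (-1.14 to -0.85). It made up 11.2% of alpha reads in Ago2ADH (10.3 to 12.1) and 13.8% in wild type (13.1 to 14.5). Reads from it ended mostly at 20 nt, which held 55.1% of them in Ago2ADH and 56.1% in wild type, with smaller groups at 22 nt (10.5% in Ago2ADH and 9.33% in wild type) and 27 nt (7.17% in Ago2ADH and 6.73% in wild type).

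The nested reads shown at the start thus had similar proportions in the libraries, and each was less abundant in Ago2ADH. The read of 20 nt had 315 reads in Ago2ADH and 692 in wild type, -1.03 on the log2 scale (-1.22 to -0.83). The read of 22 nt had 60 in Ago2ADH and 115 in wild type, and that of 27 nt had 41 in Ago2ADH and 83 in wild type. Leaving out this 5′ end moved the alpha log2 ratio to -0.65 (-0.70 to -0.60), so the lower alpha count did not rest on it.

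Over all alpha 5′ ends with at least 50 reads, 48 of 61 had an interval below 0 and 0 had one above. Their median log2 ratio was -0.83, and they ran from -2.28 to 0.27. The lowest, at position 4 from the A of the start codon, had 12 reads in Ago2ADH and 63 in wild type. The limit of 50 was set on both libraries together, and no end from 32 to 12 nt before the start codon reached it. Ends there with an interval above 0, such as that at 27 nt (29 reads in Ago2ADH and 3 in wild type), were thus not counted. The same held for single sequences of the 5′ UTR, of which the most abundant had 15 reads in Ago2ADH and 0 in wild type. By exact sequence, 16 of the 22 Hba-a2 reads seen at least 50 times had an interval below 0 and 0 had one above. The lowest of these, tgcgtgtggatcccgtc, lies at positions 275 to 291 from the A of the start codon (chr11:32296920-32296936, plus strand), and had 9 reads in Ago2ADH and 41 in wild type.

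Beta fragments were less concentrated. The 5 most used ends held 11.4% of the beta reads in Ago2ADH and 9.77% in wild type. For alpha they held 22.04% in Ago2ADH and 25.4% in wild type. Of 20 beta ends with at least 50 reads, 9 had an interval below 0 and 1 had one above. That one, 55 nt after the stop codon, had 73 reads in Ago2ADH and 28 in wild type, which gave a log2 ratio of 1.49 (0.84 to 2.18). Only 5 nt on, the end 60 nt after the stop codon had 33 reads in Ago2ADH and 99 in wild type, a ratio of -1.48 (-2.09 to -0.89).

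The pair of Hbb-bt reads shown for these ends, picked after their values were seen, had 31 reads in Ago2ADH against 7 in wild type for the first, and 5 in Ago2ADH against 23 in wild type for the second. The 3 most abundant Hbb-b2 sequences were nested reads of 1 coding stretch that end at the same base. They had 17, 18 and 20 reads in Ago2ADH, against 37, 36 and 32 in wild type.

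Globin fragments of the Ago2ADH library were longer. Their mean length was 22.1 nt in Ago2ADH and 21.7 nt in wild type, with the most common length at 20 nt in both. Reads of 25 nt or more made up 27.6% of globin reads in Ago2ADH (26.5 to 28.6) and 22.5% in wild type (21.8 to 23.2). The log2 odds of such a length were higher in Ago2ADH by 0.39 (0.30 to 0.49). They were higher by 0.42 for alpha and by 0.33 for beta. All other RefSeq fragments moved the same way by less, 0.13 (0.12 to 0.14). With each distinct globin sequence counted once the difference was 0.09 (-0.06 to 0.23), an interval that spans 0. Counted this way, 25 nt or more held 32.9% of globin sequences in Ago2ADH and 31.6% in wild type. For other RefSeq sequences the shares were 31.5% in Ago2ADH and 28.0% in wild type. The larger shift of globins was thus seen by reads and not by distinct sequences.

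The ratio of the libraries was accordingly graded by length. It was -0.84 on the log2 scale for globin reads of 15 to 18 nt, -0.74 for 19 to 24 nt and -0.37 for 25 nt or more. For comparison, other RefSeq reads had -0.25, -0.06 and 0.01 in the same classes. At 20 nt, the peak of the globin profile, the ratio was -0.87, and at 30 nt it was -0.12 with an interval that spans 0 (-0.43 to 0.18).

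**Figure D4:**
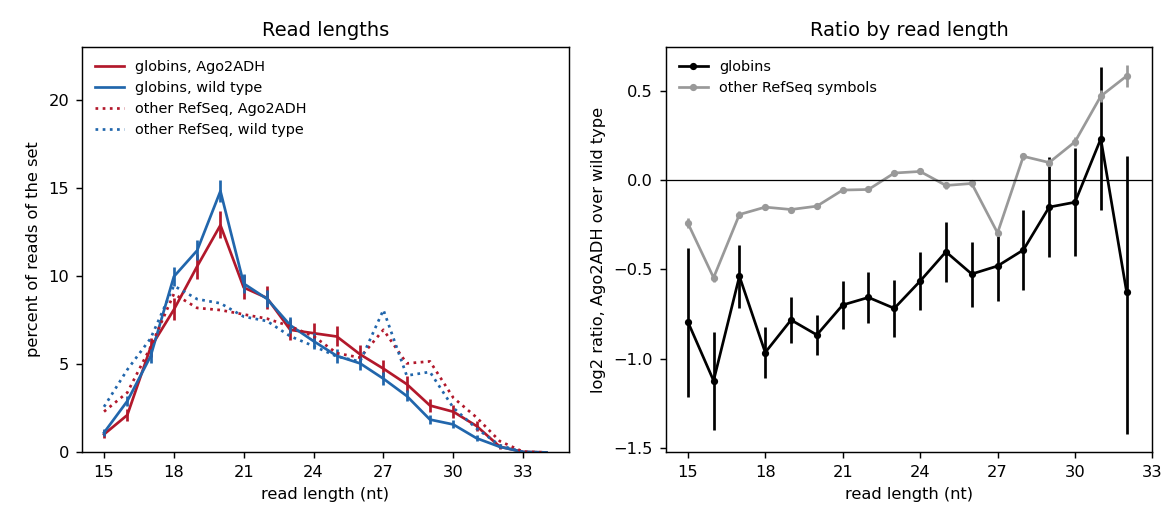
Left, percent of reads at each length for globins (solid) and other RefSeq symbols (dotted) in Ago2ADH (red) and wild type (blue), with 95% intervals for globins. Right, log2 ratio of Ago2ADH over wild type at each length from 15 to 32 nt with 95% counting intervals. Globins peak at 20 nt, and their ratio lies near -0.9 there and near -0.1 at 30 nt.

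T was the first base of 38.1% of globin reads in Ago2ADH and 38.1% in wild type, against 25.1% of other RefSeq reads in Ago2ADH and 23.2% in wild type. Alpha reads carried that share, with 41.9% in Ago2ADH and 41.4% in wild type, while beta reads started with T in 28.8% in Ago2ADH and 29.5% in wild type. The most used alpha end starts with T. By length profile from 19 to 30 nt over both libraries, the closest of 114 well-covered genes were the hepatocyte and plasma protein genes Afp (92.9% overlap), Fgb (92.7%), Ass1 (92.3%), Kng1 (92.2%) and Pzp (92.1%), with 87.2% as the median over all 114. Their own log2 ratios ran from -0.39 for Fgb to 0.29 for Afp.

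Reads across exon junctions were filed in a class of reads without a genome match. Under globin names this class held 423 reads in Ago2ADH and 593 in wild type, which gave a log2 ratio of -0.38 (-0.56 to -0.20). The first alpha junction gave most of them, with 255 reads in Ago2ADH and 382 in wild type, -0.47 (-0.71 to -0.24). The second alpha junction had 58 in Ago2ADH and 72 in wild type. The beta junctions had 33 in Ago2ADH and 31 in wild type for the first, and 43 in Ago2ADH and 47 in wild type for the second. A lower count in Ago2ADH beyond counting error was thus seen at the first alpha junction and not detectable at the other 3. Another 31 reads of this class in Ago2ADH and 58 in wild type matched no transcript exactly.

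Other genes of red cells gave mixed differences. Of 11 red cell membrane genes with at least 100 reads, 5 had an interval below 0 and 0 had one above, with a median log2 ratio of -0.47, while 9.31% of all symbols had an interval below 0 and 10.3% above. One of them, Spna1 for alpha spectrin, met the 2-fold rule, with 50 reads in Ago2ADH and 125 in wild type. Slc4a1, the anion exchanger band 3, had 392 reads in Ago2ADH and 645 in wild type, -0.61 (-0.79 to -0.43). Epb4.1, the membrane skeleton protein 4.1, had 450 in Ago2ADH and 726 in wild type, -0.58 (-0.75 to -0.41). Spnb1, beta spectrin, had 338 in Ago2ADH and 387 in wild type, -0.09 (-0.30 to 0.13).

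Haem synthesis and iron genes were divided. Of 7 with at least 100 reads, 3 had an interval below 0 and 1 above, and their median was -0.37. Fech, which inserts iron into protoporphyrin to form haem, had 164 reads in Ago2ADH and 250 in wild type, -0.50 (-0.79 to -0.21). Slc25a37 (mitoferrin) had 546 in Ago2ADH and 696 in wild type, -0.24 (-0.41 to -0.08). Tfrc, the transferrin receptor, had 229 in Ago2ADH and 178 in wild type, 0.47 (0.18 to 0.76).

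Among 13 regulators and partners of globin, 12 had rows (Eraf had none) and 8 had at least 100 reads. Of these 8, 1 had an interval below 0 and 0 above, beside 9.31% below and 10.3% above over all symbols. The 1 below was Sox6, a repressor of embryonic globin, with 242 reads in Ago2ADH and 377 in wild type, -0.53 (-0.77 to -0.29). Zfpm1 (FOG1) had 100 in Ago2ADH and 125 in wild type, and Eif2ak1, the haem-regulated kinase, 81 in Ago2ADH and 105 in wild type, both with intervals that span 0. The median of the 8 was -0.31. Of 5 red cell enzymes with at least 100 reads, 1 had an interval below 0 and 0 above, beside the same shares over all symbols. It was Car2 (carbonic anhydrase 2), with 120 in Ago2ADH and 179 in wild type. Cat (catalase) had 281 in Ago2ADH and 340 in wild type, and Bpgm 95 in Ago2ADH and 109 in wild type.

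The 12 hepatocyte genes summed to 13771 RPM in Ago2ADH and 13296 RPM in wild type, 0.05 on the log2 scale (0.04 to 0.06). Their median log2 ratio was -0.05, and 7 had an interval below 0 and 3 above. Many of these genes had far more reads than the red cell genes, so small ratios excluded 0, as for Alb (-0.06 to -0.02). Counts of intervals are therefore not comparable between the lists. Alb had 36365 reads in Ago2ADH and 40362 in wild type (-0.04), Trf had 25315 in Ago2ADH and 21899 in wild type (0.32), and Afp 9649 in Ago2ADH and 8509 in wild type (0.29). Serpina1a, an alpha-1 antitrypsin gene with near-identical copies, was named after its value was seen and had 286 in Ago2ADH and 566 in wild type, -0.88 (-1.09 to -0.67). White blood cell genes summed to 143 RPM in Ago2ADH and 164 RPM in wild type, with 2 of 7 intervals below 0. On the log2 scale that sum stood at -0.19 (-0.31 to -0.07), beside -0.18 for haem synthesis, -0.23 for red cell enzymes and -0.42 for red cell membrane genes. S100a9 had 210 reads in Ago2ADH and 306 in wild type, Ltf 144 in Ago2ADH and 189 in wild type, and S100a8 149 in Ago2ADH and 169 in wild type. Vwf was the 1 megakaryocyte gene with enough reads, at 51 in Ago2ADH and 72 in wild type, and Stab2 the 1 endothelial gene, at 128 in Ago2ADH and 118 in wild type. The red cell membrane genes summed to 267 RPM in Ago2ADH and 358 RPM in wild type, and the part of cell numbers in the globin difference was not tested.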

How the data were processed

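Small RNA of fetal liver (gel fraction of 19 to 30 nt, stage E18.5, strain B6/129) was sequenced from 1 Ago2ADH and 1 wild type library, per the labels. The deposited values are unnormalized counts of reads, given for each distinct sequence in each library. A number of genome matches, 1 annotation class and 1 description stand beside each sequence, per the file headers. The sources used here do not give the authors' aligner, genome build or annotation version.

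Rows of the RefSeq class were summed by gene symbol and scaled per 1000000 reads of the library. Log2 ratios have exact conditional binomial 95% intervals, shares exact Clopper-Pearson intervals and odds ratios Woolf intervals (Python 3.11.15, scipy 1.17.1). Genes with at least 100 reads over the libraries were compared with the 2-fold rule given above. A floor of 3 reads was used for counts of 0. Reads of 15 to 34 nt were matched exactly to globin transcripts of GENCODE M21 (GRCm38), and a read's region was that of its middle base.

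The genes named were all listed globins, up to 3 genes with most reads per comparison list and the 5 genes closest by length profile. Reads named were the 3 most abundant per globin with enough reads, and the largest rise and fall among those with 50 or more reads. Spna1, Serpina1a, reads of Hbb-bs, the alpha 5′ UTR and rarer Hbb-b2 reads were chosen after their values were seen. Members and lists were chosen with earlier results of these data known. Alternatives were other scalings (RefSeq reads, miRNA reads, TMM by edgeR 4.0.16, median of ratios), reads of 19 to 30 nt, reads with 1 genome match, distinct sequences, totals without each gene's top sequence, and other limits. Ratios by distinct sequences were scaled to the number of distinct sequences in each library. Added after the data were seen was the count of all reads that match globin transcripts with 3 or fewer genome matches.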

Additional observations from a re-analysis of the deposited data

Results flagged for a closer look

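One signal lay outside the named globin rows. Reads that match only Hbb-bs, have 1 genome match and carry no annotation class stood at 156 RPM in Ago2ADH and 139.5 RPM in wild type, above the level in the wild type library. They were 1097 reads in Ago2ADH and 1060 in wild type. The difference was small, and its counting interval on the log2 scale began at 0.04. The other scalings were not run on these reads, but a scaling shifts all log2 ratios equally. Scaling to miRNA reads moved the globin total from -0.67 to -0.78. The same shift would make the interval of the Hbb-bs reads span 0, while scaling to RefSeq reads would raise their ratio. The higher level in Ago2ADH was seen in the 3′ UTR, at 124.7 RPM in Ago2ADH and 104.6 RPM in wild type. Coding reads were fewer in Ago2ADH, at 26.5 RPM against 30.9 RPM in wild type, with an interval that spans 0.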

How the results depend on the processing

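The globin total stayed below 0 on the log2 scale under each alternative. It was -0.58 scaled to RefSeq reads, -0.78 scaled to miRNA reads, -0.57 with 1 genome match, -0.21 with distinct sequences and -0.56 with all matching reads, and moved by less than its counting interval under the others. Scaling to miRNA reads shifted the median of all symbols to -0.11. Between alpha and beta the log2 difference was 0.72 with 1 genome match and 0.21 with distinct sequences, both reversed, and -0.34 with all matching reads. With 1 genome match Hba-a2 kept 27 reads in Ago2ADH and 22 in wild type, and its log2 ratio was 0.40 (-0.46 to 1.29). The log2 odds of 25 nt or more were 0.087 with distinct sequences. The cause was not tested.

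RefSeq symbols called higher numbered 13. They were 24 scaled to RefSeq reads, 8 to miRNA reads, 7 with distinct sequences, 8 without top sequences, 141 at 1.5-fold, and 0, 172 and 264 with a minimum of 500, 20 and no reads. Those called lower numbered 17, and were 27 scaled to miRNA reads, 4 with distinct sequences, 123 at 1.5-fold, and 3, 190 and 280 with the same minimums. No globin was called at 2-fold under any of these except Hba-x with no minimum. No paired analysis was possible because there was 1 library per genotype, and no library could be left out.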
